A study of Mus musculus with 12 samples.

Results

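The 4 control samples of a series of 12 RNA-Seq samples of murine jejunal enteroids were described here on their own, as a baseline, from the gene counts of control replicates 1 to 4. The other 8 samples of the series, from Hdac1- and Hdac2-deficient enteroids, were not compared with them. Enteroids are cultured epithelial structures with crypt-like buds that grow from isolated intestinal crypts. Here they were grown for 5 days in Matrigel, a basement membrane matrix, in a medium with EGF, Noggin and R-spondin 1. The series' design text calls the controls wild-type, and the study's results call them villin-Cre control enteroids, that is, carrying the recombinase under the promoter of the villin gene, which is active in intestinal epithelium. The mice were of a mixed C57BL/6J, 129SV and CD1 background, and the methods name 1 mouse per genotype as the source of crypts, so the 4 samples are not known to come from 4 mice. The spread between them may thus be that of cultures or preparations, and a single mouse limits how far this baseline stands for other animals. Medium and matrix replace the mesenchyme, so the mesenchymal niche cells of the tissue were not part of the model.

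The epithelium of the small intestine is renewed from stem cells at the crypt base, which depend on Wnt, Notch and EGF signals and are held in check by BMP signals. Their progeny divide and become absorptive enterocytes, which digest and take up nutrients, or secretory cells: Paneth cells that release antimicrobial peptides, goblet cells that release mucus, enteroendocrine cells that release hormones, and rare tuft cells. RNA of a whole culture averages over these cells, so that fewer cells of a type and less RNA per cell cannot be told apart.

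Between 23747940 and 30081161 reads per sample were counted on 18676 genes. Levels are given as CPM, the count per 1000000 counts of that sample, and, wherever genes are set against each other, as TPM, the count per kilobase of exon scaled to the same total, since a long gene collects more reads at the same level. Values are means ± SD of the 4 samples. Detection was limited by a floor of 3 counts, or 0.0997 to 0.126 CPM, which covers counting error only. A gene that is not listed had fewer than 10 counts over the 8 samples of the table. Replicate 1 stood apart from the other samples along gene length. Its short genes were somewhat higher and its long genes lower than in replicates 2 and 3, with replicate 4 between them, and the size of this trend is given with the spread between samples.

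Both deacetylase genes targeted elsewhere in the series were present in every control sample. The Hdac1 level was 93.7, 88.1, 90.5 and 90.7 CPM in replicates 1 to 4, and that of Hdac2 was 139, 136, 133 and 141 CPM. Per length, Hdac1 stood at 81.2 TPM and Hdac2 at 94.6 TPM. Villin itself (Vil1), the actin-bundling protein of the microvilli whose promoter drives Cre, was at 651, 653, 652 and 652 CPM. These are levels of RNA in controls, with no mutant set beside them.

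The counts of some mitochondria-encoded genes are uncertain. Mitochondria encode subunits of the respiratory chain, and the nuclear genome holds copies of mitochondrial DNA. The annotation places such copies, listed as pseudogenes, on chromosome 1. The beginning of mt-Co2, a subunit of cytochrome c oxidase (mitochondrial genome, bases 7013 to 7696, forward strand), and of its nuclear copy Gm28661 (chr1:24614885-24615565, reverse strand, GRCm38) are shown because the 2 run without a difference. All letters are in lower case, as no base differed.
mt-Co2: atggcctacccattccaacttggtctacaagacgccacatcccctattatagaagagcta
Gm28661: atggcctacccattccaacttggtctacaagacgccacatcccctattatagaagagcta
Over the 681 bases aligned there were 0 mismatches. Of all 100-base windows of mt-Co2, the length of 1 read, 99.5% also occurred in another annotated gene. The level of mt-Co2 was 4.89, 4.29, 4.24 and 4.84 CPM, and that of Gm28661, chosen after its values were seen, was 8.24, 7.37, 8.34 and 8.63 CPM.

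The mitochondria-encoded genes that shared nearly all of their windows with another annotated gene were all low, while most of those that shared few were among the most abundant genes of the enteroids. mt-Co3, with 99.9% of windows shared with Gm28437, stood at 4.98 ± 0.579 CPM, and mt-Atp6, with 99.5% shared with Gm10925, at 5.81 ± 1.08 CPM. mt-Nd3 (97.6% shared) and mt-Nd4l (98.5% shared) were at 0.693 ± 0.207 and 0.253 ± 0.101 CPM. In contrast, mt-Nd1, a subunit of complex I with no shared window, stood at 1962 ± 105 CPM, and mt-Cytb, likewise with none, at 1371 ± 57.8 CPM. mt-Nd4 (60.8% shared) lay between these, at 484 ± 23.3 CPM. The exceptions were mt-Atp8 and mt-Nd6, which had no window shared with another annotated transcript and yet stood at 1.30 ± 0.114 and 28.6 ± 7.06 CPM. How reads that match several places were counted is not given in the sources used here, and the part of the copies in these values was not tested. All mitochondria-encoded genes together held 1.56% ± 0.0419 of counts, to which these low genes, as counted, added next to nothing. As the levels of those that share nearly all of their windows are uncertain, this share is uncertain too.

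The control transcriptome was broad. Of the 18676 genes listed, 11945 had at least 1 CPM in all 4 samples, 11118 of them protein-coding. Per sample the number was 12220, 12205, 12251 and 12286. At least 10 CPM was reached by 9170 genes, 100 CPM by 2218 and 1000 CPM by 94, while 1611 genes had at most 3 counts in every sample. The single most counted gene held 1.21% of counts, the 20 most counted 7.71% ± 0.0686 and the 100 most counted 18.7% ± 0.365. The 932 most counted genes together held 50% of counts.

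The most abundant RNAs were those of protein synthesis, energy metabolism and nutrient handling. Eef1a1, the elongation factor that brings aminoacyl-tRNA to the ribosome (chr9:78478449-78489151), came first on both scales. Its level per length was 15015, 15056, 14712 and 15153 TPM in replicates 1 to 4. mt-Co1, the catalytic subunit of cytochrome c oxidase, followed with 14056, 14485, 14600 and 14616 TPM, so that its samples lay below those of Eef1a1 without overlap. As 30.8% of the windows of mt-Co1 and 16.3% of those of Eef1a1 occur in other annotated genes, both levels are uncertain. The third was Fabp1 (chr6:71199827-71205023), the fatty acid binding protein of liver and proximal intestine, with 10102, 8818, 9069 and 9925 TPM. Its replicates 1 and 4 were higher than 2 and 3. Rplp1, a ribosomal stalk protein, stood below it at 8376, 7946, 7986 and 8316 TPM, and mt-Nd1 at 6644, 6116, 6299 and 6199 TPM, so that the samples of these 3 genes did not overlap. The level of Rplp1 is uncertain too, as 30% of its windows occur in other annotated genes.

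**Figure D1:**
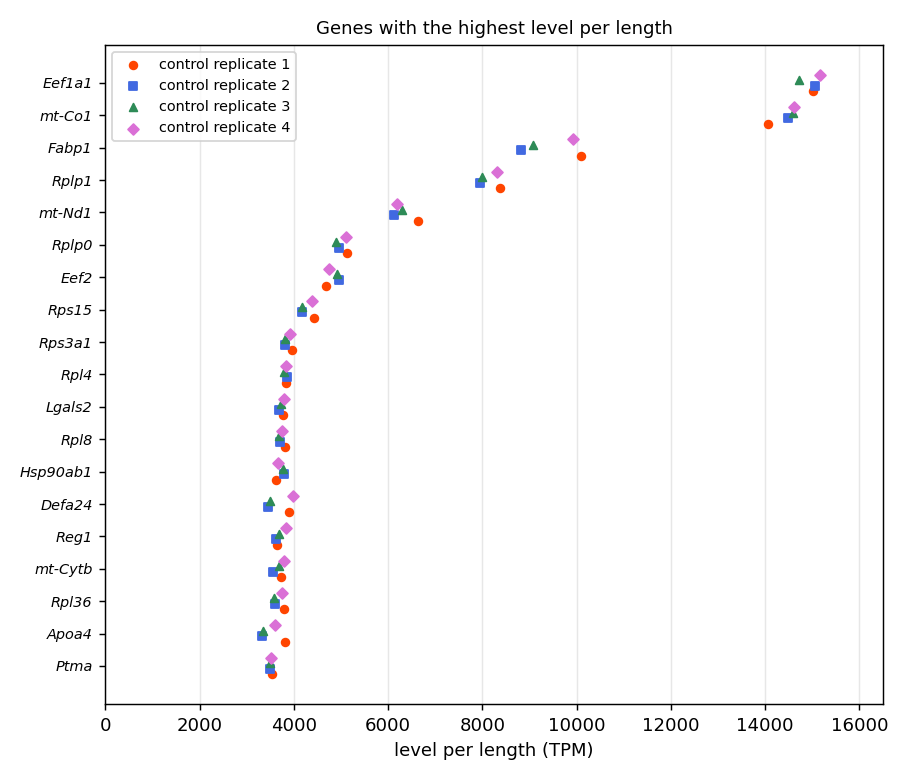
Genes with the highest level per length in control enteroids, 19 of the 20 highest. The x axis is the level in TPM on a linear scale from 0, and each point is 1 control replicate. Eef1a1 and mt-Co1 stand at about the same height, Fabp1 and Rplp1 lie below them, and from Rps15 at 4287 TPM downwards the genes lie close together.

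Below these, the values lay close together. Rplp0 (5024 ± 118 TPM) and Eef2, the translocation factor of the ribosome (4825 ± 133 TPM), overlapped, with replicate values of 5128, 4967, 4885 and 5114 against 4681, 4957, 4916 and 4745 TPM. The rest of the 20 highest per length ran from Rps15 at 4287 TPM to Ptma, prothymosin alpha, at 3509 ± 23.0 TPM. Among them were the ribosomal proteins Rpl4 at 3832 ± 24.0 TPM and Rpl8 at 3741 ± 53.9 TPM, Lgals2, a galectin of the epithelium, at 3745 ± 47.9 TPM, and Hsp90ab1, the constitutive cytosolic chaperone, at 3714 ± 77.8 TPM. Specialised products of the gut stood at the same height. Defa24, a Paneth cell defensin, had 3709 ± 274 TPM, Reg1, a secreted lectin-like protein, 3700 ± 93.4 TPM and Apoa4, an apolipoprotein of chylomicrons, 3520 ± 238 TPM. As 51.0% of the windows of Apoa4 occur in other annotated genes, its level is uncertain. The median of all genes with at least 1 CPM was 23.5 TPM. These 20 genes depend on the length used. Of them, 13 remained among the 20 highest with the longest transcript in place of all exons, and 7 with no length correction.

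Promoter sequences were set beside abundance for the genes in the RefSeq table of GRCm38.p6, which gives 250 bases before to 50 after the start of each gene. A TATA box binds the TATA-binding protein and is found in many tissue-specific genes. The letters TATAAA on the gene strand, 20 to 40 bases before the start, were held by 2 of the 11 promoters matched among the 20 highest protein-coding genes per length, Fabp1 and Reg1. The 100 highest added none, with 2 of 66 matched (3.03%), against 1.21% of 8617 promoters of genes at 1 CPM or more and 2.13% of all 27025 promoters. The 30 bases from 45 to 16 before the RefSeq start are shown for these 2 and, for the crypt, for Mmp7 and Olfm4, with TATAAA in capitals where it occurs.
Fabp1: gaggaagaatcccctTATAAAataggcaac
Reg1: ttcagccctgatgtaTATAAAaggcctacc
Mmp7: attcagggctgagaagccaTATAAAtttct
Olfm4: ccccactgggagctataagaagccctgaga
These stretches lie on the forward strand at chr6:71199834-71199863, chr6:78425938-78425967, chr9:7692045-7692074 and chr14:80000257-80000286. GENCODE starts Fabp1, Reg1 and Olfm4 further upstream than RefSeq, so that for them the distance holds only for the RefSeq start. On either strand of the whole window, CCAAT was held by 36.4% of the 66 promoters, 39.2% of those at 1 CPM or more and 37.9% of all. The letters AGATAA, read by GATA factors, were in 9.09, 6.16 and 11.4%, and TTTATGG, read by Cdx factors, in 6.06, 1.51 and 2.76%. CAAAGTCCA, read by Hnf4a, was in 0 of 66, 0.453 and 0.477%. A match is a run of letters and not a bound site, and none of these motifs contains another.

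By reads alone, without length, long genes joined the list. Scd2, a stearoyl-CoA desaturase, stood at 4180, 4481, 4455 and 4207 CPM. Pabpc1, the poly(A)-binding protein, had 3042 ± 60.6 CPM. Glycolysis was represented by 5 of the 20 most counted genes: Ldha at 2994 ± 116, Pkm at 2746 ± 47.9, Gapdh at 2697 ± 64.8, Aldoa at 2396 ± 30.5 and Gpi1 at 2231 ± 17.5 CPM. Cps1, the carbamoyl phosphate synthetase of the urea cycle that enterocytes share with hepatocytes, had 2597 ± 103 CPM, and Atp5b, a subunit of the ATP synthase, 2447 ± 44.7 CPM. Pigr, the receptor that carries IgA across the epithelium, stood at 2411, 2645, 2615 and 2531 CPM. In Scd2, Pigr and Cps1 replicate 1 was the lowest of the 4 samples, and in Ldha and Gapdh it was the highest.

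Cytosolic ribosomal proteins, the protein part of the translation machinery, were a large class. All 82 listed genes of the class had at least 1 CPM in every sample, and together they held 7.31, 6.68, 6.64 and 7.12% of counts. Per length their share was 12.9% ± 0.379 of TPM. They made up 35 of the 100 and 7 of the 20 highest genes per length, with a median of 1164 TPM and a range from 108 to 8156 TPM. These genes are short, and the class was higher in replicates 1 and 4 than in 2 and 3, as short genes were in general. Many have processed pseudogenes. Of the 100-base windows of Rpl36, 55.3% occurred in another annotated gene, as did 45.3% of those of Rps3a1, so their levels are uncertain.

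Non-coding RNAs and pseudogenes took few reads. Long non-coding RNAs held 0.619% ± 0.0192 of counts over 1738 listed genes and pseudogenes 0.616% ± 0.0142 over 1941, of which 384 had at least 1 CPM in all samples. The 5 most counted were mt-Rnr2 (1769 ± 52.9 CPM) and mt-Rnr1 (528 ± 23.1 CPM), which are mitochondrial ribosomal RNAs, then Gm42418 (chr17:39846958-39848788), Rps2-ps13 and Anxa13. Gm42418 stood at 998, 962, 1088 and 1089 CPM and shared 90.1% of its windows with CT010467.1. Rps2-ps13, a processed pseudogene of a ribosomal protein gene, stood at 558 ± 13.9 CPM and shared 76.5% of its windows with Rps2-ps10. Anxa13 (544 ± 13.2 CPM) carries the biotype of a processed transcript in the annotation used and bears the name of an annexin of enterocytes. The share of long non-coding RNAs follows the annotated biotype, so it includes both Gm42418 and Anxa13. Of 362 genes examined for shared windows, 233 had none, 49 had more than 10% and 16 more than 50%.

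The epithelial and intestinal identity of the samples was clear in the marker genes. All 11 genes of epithelial structure had at least 10 CPM. The keratin Krt8 stood at 1540, 1481, 1485 and 1443 CPM, Krt19 at 1184 ± 18.2 CPM, and the adhesion proteins Epcam and Cdh1 at 1245 ± 19.0 and 846 ± 33.7 CPM. All 22 transcription factors of the intestinal list had at least 1 CPM, 20 of them at least 10 CPM, with a median of 69.3 TPM. Hnf4a, a nuclear receptor of enterocytes, was the highest per length at 647 TPM, with 983, 1029, 1038 and 1004 CPM. Elf3 followed at 612 TPM, Isx, which controls vitamin A uptake, at 440 TPM, and the caudal homeobox factors Cdx2 and Cdx1, which set intestinal identity, at 358 and 340 TPM. The lowest was Prdm1, a factor of the neonatal intestine, at 3.11 ± 0.130 CPM.

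Genes of the crypt base were expressed throughout. All 19 genes of the stem cell list had at least 1 CPM and 18 at least 10 CPM, and their sum was 6293, 6334, 6304 and 6249 CPM. Olfm4 (chr14:79984081-80023139), a secreted glycoprotein of crypt base cells, took the largest part, with 2824, 2652, 2648 and 2713 CPM. Lgr5, the R-spondin receptor that marks cycling stem cells, was at 230, 266, 263 and 247 CPM, or 75.6 TPM against 2819 TPM for Olfm4. Replicate 1 had the lowest Lgr5 value and the highest Olfm4 value, and Lgr5, with 10264 bases of exon, is among the long genes. With the length trend removed, Lgr5 was at 242, 258, 256 and 249 CPM. Smoc2, an extracellular matrix protein of stem cells, stood at 419 ± 8.15 CPM, and the transcription factor Ascl2 at 42.0 ± 1.24 CPM (79.7 TPM). Per length, Slc12a2, a chloride cotransporter of crypt cells, and Hopx came after Olfm4, at 300 and 250 TPM. Lrig1, an inhibitor of EGF receptors, had 147 TPM. Bmi1 (27.2 TPM), the telomerase gene Tert (8.36 TPM) and Tnfrsf19 (1.00 TPM) were among the lower members.

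Dividing cells were well represented. All 24 cell cycle genes had at least 10 CPM, with a median of 133 TPM and sums of 4026, 4199, 4153 and 4088 CPM. Hmgb2, a chromatin protein, and the replication clamp Pcna had the highest levels per length, at 279 and 249 TPM. The mitotic kinase Plk1 was at 234 TPM and cyclin D2 (Ccnd2) at 138 TPM. Mki67, the gene of the proliferation antigen Ki-67, stood at 198, 296, 263 and 266 CPM. Its lowest value was that of replicate 1, and its SD of 41.3 CPM the widest on the list. With each sample's trend along gene length removed, Mki67 was at 208, 287, 256 and 268 CPM, so replicate 1 remained the lowest.

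Absorptive enterocyte genes had the highest summed level of the cell type lists on both scales, in reads and per length. All 26 had at least 10 CPM, and their sum was 15319, 15262, 15211 and 15777 CPM, with a median of 276 TPM and a summed level per length of 23706 ± 867 TPM. Genes of lipid uptake and export led it. Beside Fabp1 and Apoa4 stood Apoa1, the main protein of high-density lipoprotein, at 1851 TPM, the retinol-binding protein Rbp2 at 1326 TPM and Fabp2 at 1196 TPM. Mttp, which loads lipid onto apolipoprotein B, had 1082, 1087, 1082 and 1080 CPM. Apob itself had 588, 801, 735 and 758 CPM. The SD of Mttp was only 3.17 CPM, while Apob was lowest in replicate 1 and remained so, at 642 CPM against 708 to 761 CPM, with the length trend removed.

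The digestive enzymes of the brush border and the transporters varied widely in level. Sis, sucrase-isomaltase, was at 1123 TPM with 2437, 2814, 2792 and 2823 CPM. Alkaline phosphatase (Alpi) had 572 TPM, Mgam, maltase-glucoamylase, 278 TPM, and the aminopeptidase Anpep 209 TPM. Lactase (Lct) was the lowest of the list at 15.5 TPM, or 32.2 ± 1.32 CPM. Among transporters, the sodium-glucose cotransporter Slc5a1 had 870 TPM, the fructose transporter Slc2a5 111 TPM, the glucose transporter Slc2a2 72.0 TPM and the peptide transporter Slc15a1 17.8 TPM. Krt20, a keratin of differentiated cells, was at 274 TPM.

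**Figure D2:**
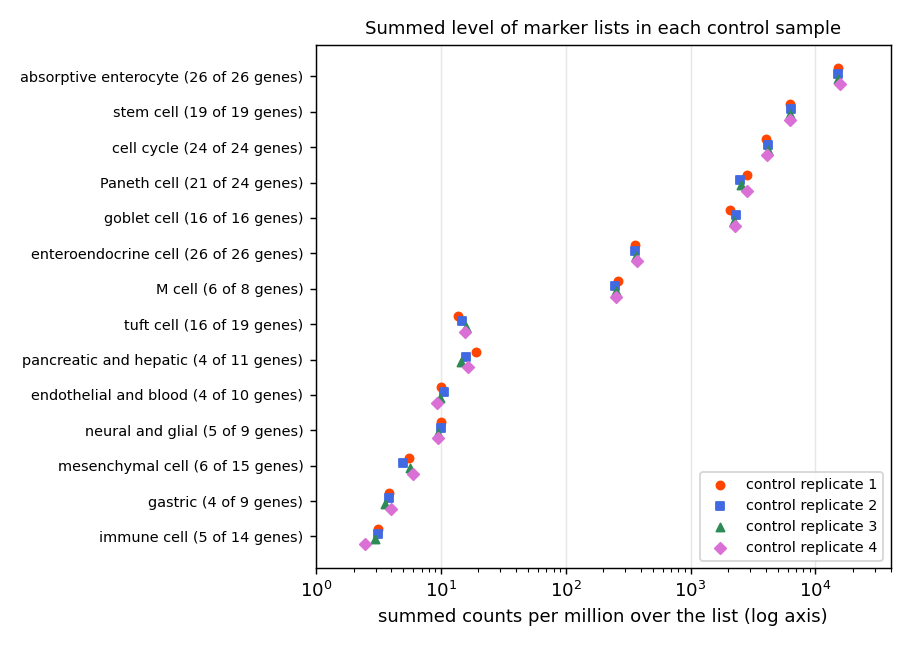
Summed level of marker lists in the 4 control replicates. The x axis is the summed CPM over the listed members, on a log axis, and each point is 1 replicate. Enterocyte, stem cell, cell cycle, Paneth and goblet lists lie between 2071 and 15777 CPM, and the lists of tuft, gastric and non-epithelial cells lie below 20 CPM.

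Paneth cell products were abundant, and their gene family was uneven. Of 24 genes, 21 were listed and 17 had at least 1 CPM, with sums of 2854, 2491, 2542 and 2833 CPM. Replicates 1 and 4 were higher than 2 and 3 without overlap. Per length the list summed to 10972 ± 637 TPM, above the 5804 ± 55.2 TPM of goblet cell genes and the 4630 ± 37.6 TPM of stem cell genes, although in reads the stem cell list was the higher. The members are short, with a median exon length of 794 bases, and with the length trend removed the sums were 2706, 2580, 2630 and 2781 CPM, with replicates 1 and 4 still the higher. Defa24 (chr8:21734494-21735471) was the highest per length, with 3897, 3457, 3491 and 3990 TPM. It had no 100-base window in common with another gene. Itln1, a lectin that binds microbial glycans, followed at 2144 TPM with 843, 749, 744 and 841 CPM. Ang4, an antimicrobial ribonuclease, stood at 1409 TPM, and Lyz1, the Paneth cell lysozyme, at 1333 TPM with 600, 494, 520 and 574 CPM. The other lysozyme gene, Lyz2, which is typical of myeloid cells, was at 0.107 ± 0.0826 CPM, and the 2 share only 2.06% of the windows of Lyz1.

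The remaining defensins ran over a wide range. Defa17 had 457 TPM and Defa30, which the table lists under the symbol Gm15284 and which was matched by its identifier, 336 TPM. Defa5 stood at 31.3 TPM, Defa3 at 6.41 TPM, and Defa23 and Defa26 at 1.05 and 0.709 TPM. Defa20, Defa21 and Defa22 were not listed. The sequences overlap. Defa17 shared 90.6% of its windows with Defa3, Defa23 shared 89.1% with Defa31, and Defa5 shared 88.1% with other genes, so the levels of these single genes are uncertain, and how shared reads were assigned is not given in the sources used here. Matrilysin (Mmp7), the protease that activates mouse defensins, stood at 75.2, 71.6, 74.6 and 77.9 CPM (216 TPM). Mptx1 and Mptx2, pentraxins of the mouse gut, had 241 and 89.3 TPM. Pla2g2a, an antibacterial phospholipase, was at 7.25 ± 1.23 CPM.

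Per length, goblet cell genes were led by small secreted proteins and not by mucin. All 16 were listed and 15 had at least 1 CPM, with sums of 2071, 2323, 2241 and 2268 CPM. Tff3, the trefoil peptide that protects the mucosa, stood at 2624 TPM with 438, 409, 402 and 431 CPM, and Spink4, a protease inhibitor, at 1906 TPM. Agr2, which folds mucins, had 392 TPM and Zg16, a lectin of mucus, 223 TPM. The gel-forming mucin Muc2 stood at 32.8, 51.4, 40.8 and 44.4 CPM, or 18.4 TPM. Fcgbp, a large protein of the mucus gel, had 775, 1059, 986 and 977 CPM and was the highest of the list by reads, though not per length, at 279 TPM. Replicate 1 was the lowest in both of these long genes, and with the length trend removed it still was, at 33.8 CPM against 40.2 to 50.6 CPM for Muc2 and at 816 CPM against 960 to 1027 CPM for Fcgbp. The fate factors Atoh1 and Spdef stood at 26.7 and 24.4 TPM. Retnlb, an antibacterial resistin-like protein of goblet cells, was near the floor, at 0.106 ± 0.0203 CPM.

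**Figure D3:**
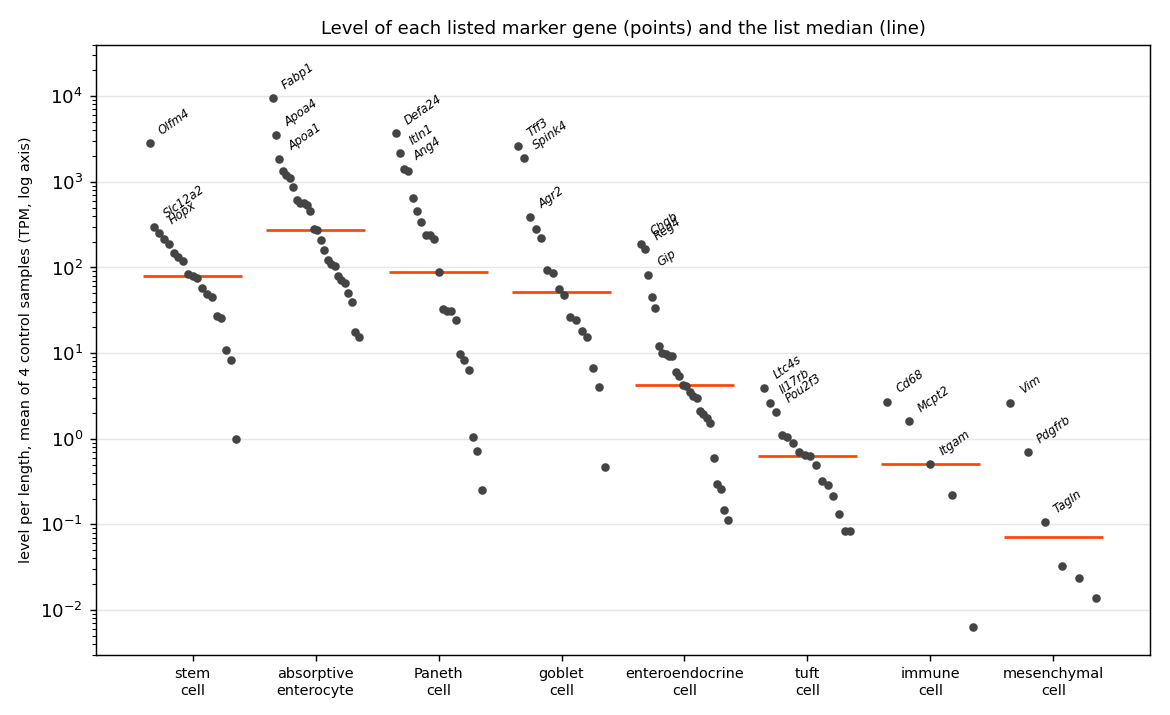
Level of each listed marker gene by cell type list. The y axis is the mean TPM of the 4 control replicates, on a log axis, each point is 1 gene, and the line is the list median. The medians fall from 276 TPM for enterocyte genes over 89.3 TPM for Paneth, 79.7 TPM for stem cell and 52.2 TPM for goblet cell genes to 0.632 TPM for tuft cell genes.

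Enteroendocrine genes were present at low levels, and most hormones were scarce. All 26 were listed, 17 had at least 1 CPM and 5 at least 10 CPM in every sample, with a median of 4.22 TPM. The granule protein Chgb stood at 157, 170, 172 and 175 CPM (190 TPM), the lectin Reg4 at 165 TPM, and chromogranin A (Chga) at 42.0, 40.7, 40.6 and 40.2 CPM (45.7 TPM). Gip, the glucose-dependent insulinotropic peptide, was the highest hormone per length, at 80.6 TPM with 20.1, 16.2, 17.9 and 17.8 CPM. Secretin (Sct) followed at 12.1 TPM, cholecystokinin (Cck) at 9.91 TPM and the tachykinin gene Tac1 at 9.27 TPM. Ghrelin (Ghrl), somatostatin (Sst) and proglucagon (Gcg) stood at 6.06, 4.29 and 4.16 TPM. Peptide YY (Pyy) at 1.74 TPM and neurotensin (Nts) at 0.598 TPM, hormones of the distal gut, were the lowest. Neurog3, the factor that starts the endocrine fate, stood at 18.8, 17.7, 19.5 and 16.9 CPM (33.6 TPM), while the later factors Neurod1 (3.13 TPM), Pax4 (1.93 TPM) and Isl1 (0.297 TPM) were lower.

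Tuft cell genes were scarce. Of 19, 16 were listed and 5 had at least 1 CPM, none reached 10 CPM, and the whole list summed to 13.8, 14.8, 15.9 and 15.7 CPM. Pou2f3, the factor that specifies tuft cells, had 2.23, 1.95, 2.00 and 2.06 CPM, and the ion channel Trpm5 1.99, 2.20, 2.43 and 2.11 CPM. The kinase Dclk1 stood at 0.698, 1.45, 1.13 and 0.926 CPM. Gfi1b had at most 3 counts in each sample, and Il25, Gnat3 and Chat were not listed.

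The lists of M cells and of fetal epithelium were carried by genes that are not restricted to them. Of 8 M cell genes, 6 were listed, and Pglyrp1, a peptidoglycan recognition protein, made up most of the sum with 189, 176, 175 and 180 CPM. Tnfrsf11a, the receptor for RANKL, had 47.8 ± 1.84 CPM. The defining factor Spib stood at 0.787 ± 0.131 CPM, and Gp2 and Sox8 were not listed. In the fetal list, Krt7 took 229 ± 4.97 of the 303 ± 7.40 CPM, while Ly6a stood at 15.9 ± 2.34 CPM and Clu at 28.1 ± 2.60 CPM. Spp1 had at most 3 counts in each sample.

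Most genes of the proximal small intestine were present, and those of the ileum were mixed. All 10 duodenal and jejunal genes were listed and 9 had at least 1 CPM. The alcohol dehydrogenase Adh1 was the highest at 1650 TPM, followed by Rbp2 at 1326 TPM. The ferric reductase Cybrd1 was at 158 TPM, Gata4, which sets jejunal identity, at 144 TPM (180, 185, 185 and 180 CPM) and the iron exporter Slc40a1 at 53.6 TPM. Pdx1, a factor of the duodenum, stood at 2.33 ± 0.337 CPM, and the calcium channel Trpv6 had at most 3 counts in each sample. Of the 8 ileal genes, 5 had at least 1 CPM and 3 at least 10 CPM. The bile acid binding protein Fabp6 had at most 3 counts per sample, the bile acid transporter Slc10a2 0.836 ± 0.192 CPM and the hormone Fgf15 3.14 ± 0.579 CPM. The bile acid receptor Nr1h4, which is not restricted to the ileum, was at 27.6 ± 1.24 CPM. Amn and Slc51a, also on the ileal list, stood at 33.7 and 22.4 CPM, Slc51b at 1.98 CPM and Cubn at 0.0732 CPM. The labelled jejunal origin thus goes with Gata4 in every sample and with Fabp6 at the floor. No ileal sample was at hand, so the levels of Amn, Nr1h4 and Slc51a could not be set against those of ileum.

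Colonic and gastric genes were mostly missing. Of the 10 colonic genes, 5 were not listed, among them Car1 and the posterior homeobox genes Hoxb13, Hoxd13 and Hoxa13. Car4 had at most 3 counts in each sample and Aqp8 stood at 0.362 ± 0.190 CPM. The list's sum of 222 ± 4.09 CPM came mostly from the water channel Aqp4 (154 ± 7.09 CPM) and from Mptx1, which is also on the Paneth cell list. Of the 9 gastric genes, 5 were not listed, and Atp4a, the proton pump of parietal cells, was the highest of the others at 2.46 ± 0.147 CPM. In the pancreatic and hepatic list, 7 of 11 genes were not listed, and the elastase Cela1 had the highest value, 13.0, 11.9, 10.5 and 11.8 CPM.

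Markers of cells outside the epithelium were mostly not listed or low, and none reached 10 CPM in every sample. Of 14 immune genes 9 were not listed, the sums were 3.16, 3.12, 2.97 and 2.48 CPM, and the pan-leukocyte gene Ptprc had 0, 0, 0.0667 and 0.0842 CPM, where 3 counts set the limit at 0.0997 to 0.126 CPM. Cd68 was the highest at 1.10 ± 0.134 CPM. Of 15 mesenchymal genes 9 were not listed, among them the collagens Col1a2 and Col3a1 and smooth muscle actin (Acta2). Col1a1 had at most 3 counts in each sample. Vim, the intermediate filament of mesenchymal cells, stood at 4.09, 3.33, 4.20 and 4.67 CPM and Pdgfrb at 1.23 CPM. The list summed to between 5.00 and 5.98 CPM. Of 10 endothelial and blood genes 6 were not listed, all 4 haemoglobin genes among them. Lyve1 made up most of the sum at 8.36 ± 0.504 CPM. Vwf stood at 1.14 CPM and Pecam1, a defining endothelial gene, at 0.213 ± 0.103 CPM. Of 9 neural and glial genes 4 were not listed, and the receptor gene Ret took 7.94 ± 0.454 of the 9.78 ± 0.302 CPM.

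The niche pathways were read by role, ligands first. Of 27 Wnt pathway genes, 23 were listed and 19 had at least 1 CPM. The highest Wnt ligand on the list was Wnt3, which Paneth cells make, with 8.41, 8.08, 8.57 and 7.87 CPM. Wnt9b stood at 1.75 ± 0.337 CPM and Wnt5a had at most 3 counts in each sample. The R-spondin ligands Rspo1, Rspo2 and Rspo3 were not listed, and of these the medium supplies R-spondin 1. The receptors were present, with Lrp5 at 103 TPM, Lgr4 at 88.1 TPM, Fzd5 at 67.1 TPM and Fzd7 at 47.9 TPM, while Lgr6 was not listed. Beta-catenin (Ctnnb1) stood at 667 TPM with 1123, 1136, 1127 and 1111 CPM. The target and feedback genes Axin2, Rnf43 and Znrf3 were at 119, 44.7 and 10.7 TPM and Myc at 226 TPM. Among the nuclear factors Tcf7l2 had 20.2 TPM and Tcf7 17.4 TPM, and Lef1 was at 0.203 ± 0.0988 CPM.

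Of 16 Notch pathway genes, 15 were listed and 14 had at least 1 CPM in every sample. Among ligands, Dll1 was the highest per length at 36.0 TPM with 46.8, 49.5, 52.2 and 48.7 CPM, ahead of Jag2 (16.6 TPM), Jag1 (11.5 TPM) and Dll4 (9.74 TPM). Notch1 was the highest receptor at 11.6 TPM, then Notch2 at 6.43 TPM and Notch3 at 1.31 TPM. The target Hes1, which represses the secretory fate, stood at 120, 116, 118 and 119 CPM (179 TPM), and Hes5 was at 1.79 TPM. Hey1 was not listed.

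EGF is supplied in the medium, and its own gene was scarce. Egf stood at 1.03, 0.709, 0.734 and 1.01 CPM. The other ligands of the receptor were higher, with amphiregulin (Areg) at 151 TPM, betacellulin (Btc) at 26.5 TPM, Tgfa at 23.1 TPM and Hbegf at 7.60 TPM, and Ereg stood at 0.160 ± 0.0552 CPM. Among receptors, Erbb3 and Erbb2 had 142 and 109 TPM and Egfr 10.1 TPM with 33.8, 40.1, 38.9 and 35.4 CPM. Erbb4 and the ligand Nrg1 were not listed. The feedback inhibitors Lrig1 and Errfi1 stood at 147 and 65.7 TPM.

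BMP signals are blocked in this medium by Noggin. Of 18 genes, 14 were listed and 12 had at least 1 CPM. The ligand Bmp7 stood at 41.5 TPM, Bmp2 at 11.4 TPM and Bmp4 at 1.35 TPM, and Bmp5 was not listed. The receptor Bmpr1a was at 107 TPM with 208, 223, 227 and 220 CPM, and Smad4, the shared mediator, at 105 TPM. The target genes Id1 and Id3 were low, at 6.12, 5.49, 5.57 and 6.27 CPM and at 2.75 ± 0.495 CPM, and Id2 stood at 30.2 ± 0.883 CPM. The antagonists Nog and Grem1, which the mesenchyme makes in tissue, were not listed and Chrd had at most 3 counts in each sample.

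Of the 14 immediate early and stress genes, 12 had at least 1 CPM and 9 at least 10 CPM in every sample, with a median of 21.6 TPM against 23.5 TPM for all genes at 1 CPM or more. Immediate early genes, which rise when tissue is dissociated or handled, ran from 163 TPM for Ier2, 121 TPM for Junb and 66.8 TPM for Klf6 over 46.8 TPM for Jun, 20.6 TPM for Fos and 13.4 TPM for Egr1 to 0.160 TPM for Fosb, and the 14 genes summed to 1063, 1044, 1039 and 1052 CPM. Hspa5, a chaperone of the endoplasmic reticulum, made up most of that at 609 ± 8.56 CPM. The heat shock genes Hspa1a and Hspa1b were at 1.20 ± 0.206 and 4.98 ± 0.340 CPM and share 47.1% of the windows of Hspa1a. Among reference genes, Sdha was at 591 ± 2.50 CPM, Gusb at 76.0 ± 1.20 CPM and Tbp at 22.0 ± 0.399 CPM, while Actb ranged over 2177, 2076, 2007 and 2049 CPM.

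The 4 samples were close to each other. Among the 9313 genes with a mean of at least 10 CPM, the median coefficient of variation (CV, the SD as a percent of the mean) was 4.06%, with quartiles of 2.62 and 5.99%. Counting error alone gives a median of 2.70%. A CV under 5% was found for 5939 genes (63.8%), under 10% for 8896 (95.5%) and under 20% for 9304 (99.9%). For 2326 genes the CV lay below that of counting error. For genes from 1 to 10 CPM the median CV of 11.0% was about that of counting, 10.4%. From 100 to 1000 CPM it was 2.94% against 1.45%, and at 1000 CPM or more 2.95% against 0.522%, so the spread between samples no longer fell as counts rose. The common biological coefficient of variation from edgeR, the part of the spread beyond counting, was 4.37% over 13284 genes and 2.66% without replicate 1.

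**Figure D4:**
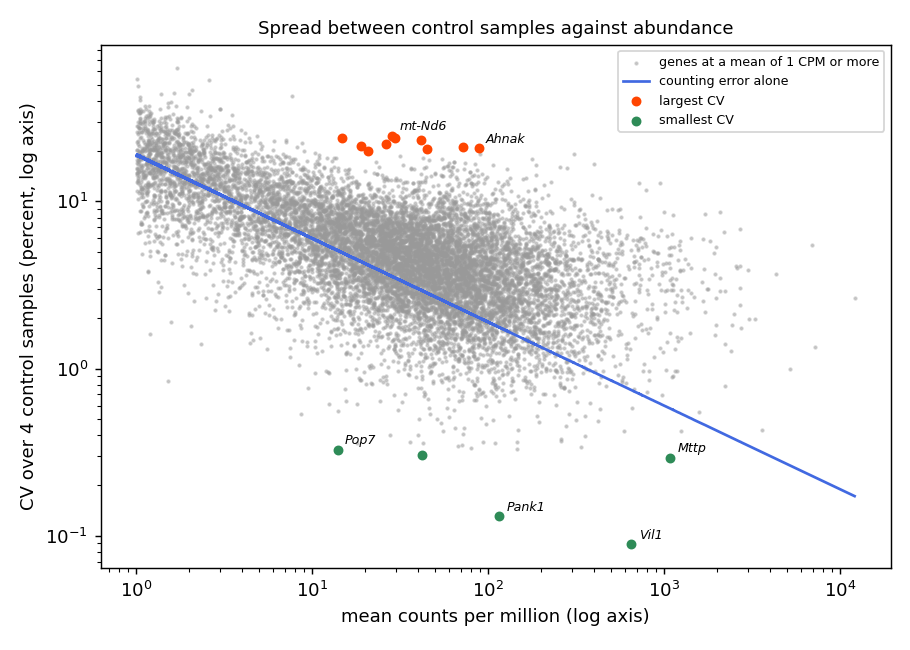
Spread between the control samples against abundance. The x axis is the mean CPM and the y axis the CV over the 4 replicates in percent, both on log axes, grey points are genes, and the line is counting error alone. Points follow the line below 10 CPM and level off near 3% above 100 CPM. The 10 genes of largest and the 5 of smallest CV at 10 CPM or more are coloured.

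The most variable genes were long, with few exceptions. Mdn1 (29.4, 53.2, 41.0 and 42.2 CPM), Zfp871 (20.7, 37.0, 33.0 and 27.3 CPM), the membrane mucin Muc4 (18.1, 31.5, 26.3 and 28.5 CPM) and Ahnak (62.6, 106, 95.6 and 89.4 CPM) all had their lowest value in replicate 1 and their highest in replicate 2. So did Arfgef3, Lnpep and Vps13c, with CVs of 21.6, 20.5 and 19.9%. Leng8, at 54.1, 65.4, 86.1 and 83.8 CPM, had its highest value in replicate 3. These 8 genes have between 6395 and 21836 bases of exon, against a median of 4617 bases. With the length trend removed they remained variable, and replicate 1 was still the lowest in each. Their CVs were then 20.7% for Zfp871, 20.5% for Leng8, 19.4% for Muc4 and 18.6% for Mdn1. Those of Arfgef3, Vps13c, Ahnak and Lnpep were 16.2, 15.7, 15.6 and 15.1%.

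The short genes mt-Nd6 and Gm10680 were as variable, in another pattern. The largest CV, 24.7%, was that of mt-Nd6, the gene on the opposite strand of the mitochondrial genome, with 22.4, 34.9, 34.4 and 22.5 CPM, so that replicates 1 and 4 were apart from 2 and 3. With the length trend removed its CV was 29.3%. Gm10680, with 19.1, 11.8, 11.9 and 16.0 CPM, shares sequence with Apoa4, which was also highest in replicates 1 and 4, at 2304 and 2132 CPM against 1923 and 1940 CPM. Of the windows of Apoa4, 25.5% occur in Gm10680 and 51.0% in any other annotated gene, so the reads of Apoa4 and Gm10680 may not be told apart. The least variable genes were Vil1 with a CV of 0.0886%, the pantothenate kinase Pank1 (0.131%), Mttp (0.293%), Selo (0.303%) and Pop7 (0.326%). All 5 lie below their counting error, which for Vil1 is 0.743%. These low values depend on the scaling. With the length trend removed the CV was 0.782% for Vil1, 2.92% for Pank1, 1.19% for Mttp, 0.445% for Selo and 4.03% for Pop7.

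The samples differed along gene length. Without regard to length, the first principal component of the deviations held 66.5% of the variance and set replicate 1 (loading 0.789) against replicates 2 (-0.447) and 3 (-0.415), with replicate 4 at 0.0722. The median log2 deviation of replicate 1 from the mean of the 4 samples went from 0.07 in the shortest of 10 equal bins of genes to -0.11 in the longest. In replicate 2 it went from -0.04 to 0.06, in replicate 3 from -0.04 to 0.06 and in replicate 4 from 0.02 to -0.01. Over 9304 genes, the deviation and the exon length had a Spearman correlation of -0.607 in replicate 1, 0.498 in replicate 2, 0.494 in replicate 3 and -0.136 in replicate 4. These correlations are across genes of the same libraries, and the deviations of the 4 samples sum to about 0, so they are a description and not 4 independent values.

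**Figure D5:**
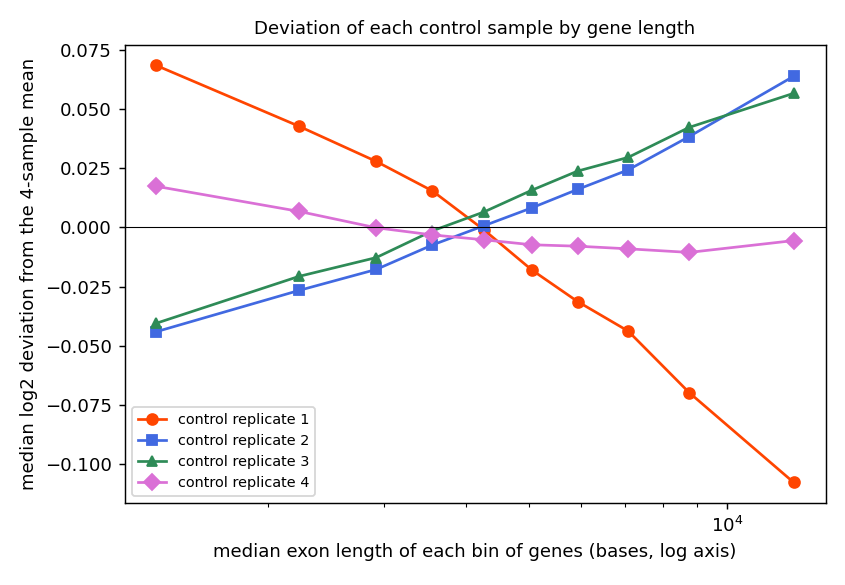
Deviation of each control sample by gene length. The x axis is the median exon length of each of 10 bins of genes in bases, on a log axis, and the y axis the median log2 deviation from the mean of the 4 samples. Replicate 1 falls from 0.07 to -0.11, replicates 2 and 3 rise from -0.04 to 0.06, and replicate 4 stays within 0.02 of 0.

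Pairs of samples showed the same order. The dispersion index, the mean squared difference in units of counting error where 1 is counting alone, was 1.52 for replicates 2 and 3. It was 2.90 and 3.05 for replicate 4 with 3 and with 2, 3.61 for replicates 1 and 4, and 8.03 and 8.16 for replicate 1 with 3 and with 2. No pair agreed within counting error, and each was counted as 1 sample, although this does not show that they come from separate cultures or mice. In no pair did any of the 9313 genes differ by more than 2-fold, and by more than 1.2-fold the share was between 0.354% and 5.94%. With the length trend removed, the median CV fell to 3.52%, and 6825 genes had a CV under 5%. RNA quality per sample and the preparation of each library are not given in the sources used here, and their part in the trend was not tested.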

How the data were processed

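RNA was taken from enteroids cultured for 5 days, and the poly(A)-enriched, strand-specific libraries were sequenced as paired reads of 100 bases. The authors aligned them to GRCm38, with STAR (2.4.0f1) and bcl2fastq (1.8.4) per the submitters' processing notes, and what they deposited are raw counts, whole numbers for each gene that were not normalized. The counting program is not given in the sources used here. A gene is in the table if its counts over the 8 samples sum to 10 or more. Its 4 raw columns of other samples were not used, nor were its normalized values, fold changes and p-values, which hold the authors' own comparison. The depth of 23747940 to 30081161 counts sets a floor of 3 counts, which covers counting error only.

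Control samples were grouped by their labels. CPM and TPM were computed from the counts with exon lengths from GENCODE M21 (GRCm38), where 18574 (99.5%) of 18676 identifiers were found, and TPM uses all exons of a gene merged. No test was run, as there is 1 group. The CV was set beside the Poisson CV, and edgeR (4.0.16, R 4.3.3) gave the common biological coefficient of variation with TMM and filterByExpr. Deviations are of log2(CPM + 0.5). Windows of 100 bases were looked up in all annotated transcripts, both strands. Calculations were tested on simulated data. Python 3.11.15, numpy 2.4.6, pandas 2.3.3 and matplotlib 3.10.9 were used.

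The members and the 26 gene lists were chosen with earlier results of these data known. Genes were named if on a list, among the 20 highest by CPM or by TPM, the 10 of largest or 5 of smallest CV at 10 CPM or more, or the 5 highest non-coding genes or pseudogenes. A few of these are not reported here. Hdac1, Hdac2 and the nuclear copies of mitochondrial genes were named in addition. Alternatives were other thresholds, TMM, DESeq2 (1.42.0) size factors, gene classes left out, another length, other filters and each sample left out. The removal of the length trend, in 20 bins, was chosen after seeing the data.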

Additional observations from a re-analysis of the deposited data

Results flagged for a closer look

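In a group of 4 samples, a value was picked out where the gap of its highest or lowest sample to the next, as a share of the whole range, was above Dixon's 95% critical value for groups of that size. Of 261 values examined (the genes named with values, the summed lists and the gene classes), 10 met this. Chance alone picks out about 1 in 20 groups, so these 10 are no more than chance would give. They are listed as a description only.

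Replicate 1 was apart from the other samples in 4 of the 10. It was low for Sis, at 2437 CPM against 2792 to 2823 CPM, for the Notch ligand Jag1, at 19.3 CPM against 22.2 to 22.8 CPM, and for the endocrine factor Isl1, at 0.166 CPM against 0.425 to 0.467 CPM. Replicate 1 was high for the summed M cell list, at 261 CPM against 251 CPM in each of the others. Sis and Jag1 are long and Pglyrp1, which leads the M cell list, is short. With the length trend removed, replicate 1 was still the lowest for Sis, at 2533 CPM against 2728 to 2841 CPM. It was also still the lowest for Jag1, at 19.7 CPM against 22.2 to 22.5 CPM, and for Isl1, at 0.166 CPM against 0.426 to 0.467 CPM. The M cell list was then at 254, 255, 255 and 250 CPM in replicates 1 to 4.

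Replicate 4 was apart for another 4. It was low for Pabpc1, at 2952 CPM against 3065 to 3085 CPM, and for the calcium channel Trpv6, at 0.0421 CPM, a value under the floor of 3 counts. It was high for Slc5a1, at 1175 CPM against 1152 to 1156 CPM, and for Id2, at 31.5 CPM against 29.7 to 29.8 CPM. Replicate 2 was low for the ferric reductase Cybrd1, at 264 CPM against 276 to 277 CPM, and for Bmp4, at 0.673 CPM against 1.06 to 1.14 CPM.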

How the results depend on the processing

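The 21 values recalculated were 17 cell type and regional lists, the genes detected, the share of the 100 most counted genes, the common coefficient of variation and the 20 highest genes per length. Of 179 recalculations, 172 stayed within the limit set. The limit was the spread between samples or, for counts of genes and for the common coefficient of variation, 1.5 times. Many of the 172 could not have come out otherwise. For the lists and the share of the 100 most counted genes, leaving out 1 of 4 samples cannot move a mean by that spread. Leaving out list members at 3 counts or fewer removes almost no counts. The tally is therefore no measure of how robust the values are. The share of the 100 most counted genes, 18.7%, was 18.1% with the mitochondria-encoded genes left out and 28.8% on the TPM scale. With those genes left out of the total, the stem cell list was at 6394 CPM and the ileal list at 91.2 CPM, since the total is then smaller. Of the 20 highest genes per length, 13 stayed with the longest transcript and 7 with CPM. The common coefficient of variation was 2.66% without replicate 1 and up to 5.09% with another sample left out, and the cause was not tested. Genes at 1 CPM or more were between 11979 and 12009 with a sample left out, as fewer samples have to pass. The length adjustment, chosen after seeing the data, keeps the mean of a list nearly as it is by construction and can change only its spread, as for the Paneth cell list, whose SD went from 190 to 88.0 CPM. No paired analysis was possible because the values come from 1 group and no test. Depth limits the genes with at most 3 counts in every sample, 1611 of those listed.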
